A study of Homo sapiens with 4 samples.

Results

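The long arm of chromosome 3, 3q, was examined as a stretch of the genome bound by the transcription factor SPIB in H1703 cells. Its members were every called SPIB peak on chromosome 3 whose summit, the position of highest tag pile-up, lay beyond 93.9 Mb of hg38. The rule uses position and no measured value. It chose 337 of the 9024 peaks called in suspended cells and 10 of the 462 called in attached cells, 347 of 9486 in all. H1703, the line used, was established from a human squamous carcinoma of the lung. Chromatin immunoprecipitation with sequencing (ChIP-seq) was done with an anti-FLAG M2 antibody on cells that overexpressed SPIB, and both conditions carried this overexpression. The groups were 1 ChIP library and 1 input library of suspended cells, which were kept from attaching, and 1 of each of attached cells. The treatment field of the labels names suspension for every library, so the groups were told apart by the condition label. All members therefore come from a single line with tagged SPIB, and no value below has a replicate check.

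SPIB is a member of the ETS family of transcription factors, which bind DNA at a GGAA core, and its best known roles are in plasmacytoid dendritic cells and B cells. The long arm of chromosome 3 is often gained in squamous tumours of the lung. It carries SOX2 and TP63, which encode lineage factors of squamous and basal epithelium, and PIK3CA, which encodes the catalytic subunit of a lipid kinase of growth signalling. The short arm, 3p, is often lost in the same tumours and carries many tumour suppressor genes. The number of copies of either arm in these cells was not measured here.

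Promoter sequence shows what lies under the peaks that fell at gene starts. A promoter window here is the RefSeq sequence (GRCh38.p14) from 250 bases before to 50 bases after a listed start, and a gene can have several starts. The named genes of 3q had a suspended summit in 27 such windows, belonging to 26 genes. The 6 windows of highest fold are printed as the 250 bases before the start, 5′ to 3′ on the strand of the gene. Capitals mark GGAA or its other-strand form TTCC, and the longer GAGGAAGT, a site of the SPI branch of the family, or its other-strand form.
DRD3: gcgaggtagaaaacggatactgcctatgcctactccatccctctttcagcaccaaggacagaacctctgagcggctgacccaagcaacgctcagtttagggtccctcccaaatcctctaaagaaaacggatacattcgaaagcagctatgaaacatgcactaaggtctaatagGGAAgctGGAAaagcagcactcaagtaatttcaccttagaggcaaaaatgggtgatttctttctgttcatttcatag
KALRN: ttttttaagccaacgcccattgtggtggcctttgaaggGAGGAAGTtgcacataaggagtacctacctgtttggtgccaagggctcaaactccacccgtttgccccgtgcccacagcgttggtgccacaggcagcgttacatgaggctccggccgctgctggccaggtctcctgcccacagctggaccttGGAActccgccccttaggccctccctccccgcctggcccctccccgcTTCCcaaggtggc
CPNE4: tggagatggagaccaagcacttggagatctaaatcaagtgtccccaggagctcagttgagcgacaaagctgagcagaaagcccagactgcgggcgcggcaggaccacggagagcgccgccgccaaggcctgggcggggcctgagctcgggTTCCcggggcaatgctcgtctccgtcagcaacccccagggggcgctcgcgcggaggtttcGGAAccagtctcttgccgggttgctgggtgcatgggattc
OPA1: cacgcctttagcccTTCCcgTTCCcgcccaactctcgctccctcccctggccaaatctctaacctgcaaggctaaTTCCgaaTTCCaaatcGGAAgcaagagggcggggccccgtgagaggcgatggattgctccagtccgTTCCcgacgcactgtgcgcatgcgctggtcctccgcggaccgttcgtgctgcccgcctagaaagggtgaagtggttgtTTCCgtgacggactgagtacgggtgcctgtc
GOLIM4: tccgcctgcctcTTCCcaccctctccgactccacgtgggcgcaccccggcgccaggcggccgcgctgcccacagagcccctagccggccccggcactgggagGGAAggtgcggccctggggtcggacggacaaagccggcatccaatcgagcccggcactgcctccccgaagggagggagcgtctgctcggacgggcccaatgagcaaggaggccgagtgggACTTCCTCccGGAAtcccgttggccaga
MSL2: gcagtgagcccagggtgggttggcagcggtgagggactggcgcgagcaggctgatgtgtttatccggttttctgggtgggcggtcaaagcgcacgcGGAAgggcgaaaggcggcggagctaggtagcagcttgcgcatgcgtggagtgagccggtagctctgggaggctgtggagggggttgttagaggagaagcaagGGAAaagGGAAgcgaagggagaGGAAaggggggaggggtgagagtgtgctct

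These stretches lie at chr3:114178777-114179026 (DRD3, minus strand), chr3:124584408-124584657 (KALRN, plus strand), chr3:132035015-132035264 (CPNE4, minus strand), chr3:193592958-193593207 (OPA1, plus strand), chr3:168095925-168096174 (GOLIM4, minus strand) and chr3:136196336-136196585 (MSL2, minus strand). GOLIM4, which encodes a Golgi membrane protein, holds GAGGAAGT on the minus strand of the printed sequence. Its suspended summit lay 33 bases before the start and 7 bases from the nearest GGAA. KALRN holds GAGGAAGT as well, and its summit lay 156 bases before this start and 54 bases from the nearest GGAA. At OPA1, which encodes a fusion protein of the inner mitochondrial membrane, the summit lay 2 bases from the nearest GGAA. At MSL2, which encodes a subunit of a histone acetyltransferase complex, that distance was 6 bases. At CPNE4, a copine gene, it was 40 bases, and at the dopamine receptor gene DRD3 116 bases. The distances count GGAA in the printed stretches, so a nearer one outside them would be missed. A summit is not placed to a few bases either. At OPA1 the suspended peak held 15 tags, and the attached summit of the same site lay 175 bp away. The printed OPA1 stretch holds 7 GGAA on either strand, so a short distance is common there. No background distance was computed, and the distances do not show binding at a GGAA. The DRD3 summit lay 193 bases before this start, near the edge of the stretch, and 83 bases after another listed start.

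Over all windows of 3q, GGAA on either strand was too common to tell windows apart. It occurred in 42 of 42 windows with a suspended summit (100%, Clopper-Pearson 95% interval 91.6 to 100), in 95.9% of the 1157 windows of 3q without one and in 95.5% of all 35116 windows. GAGGAAGT on either strand occurred in 2 of the 42 (4.76%, 0.582 to 16.2), against 1.73% of the 3q windows without a summit and 2.59% of all windows. Windows with a suspended summit held it in 0 of 30 on 3p (upper limit 11.6%) and in 8.34% of 899 on other chromosomes. CCGGAAGT, a site of many ETS factors that overlaps GGAA, occurred in 1 of the 42 (2.38%, 0.0603 to 12.6), against 4.58% and 4.14%. Windows with a suspended summit held it in 3 of 30 on 3p (10%, 2.11 to 26.5) and in 9.45% on other chromosomes (7.62 to 11.6). With 42 windows, shares of either longer site on 3q were not distinguishable from those of all windows. The GC-rich string GGGCGG on either strand stood in 36 of the 42 (85.7%, 71.5 to 94.6), against 37.9% of the 3q windows without a summit and 45% of all. It was as well in 66.7% of the windows with a suspended summit on 3p (47.2 to 82.7) and in 75% of those on other chromosomes (72 to 77.8). The median GC content was 66% with and 53% without a summit, and the part of GC content in that difference was not tested. Windows of neighbouring starts can overlap, and a match describes letters and is not a bound site.

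The values at the peaks are those of the authors' lists. Tags are ChIP reads counted in a called peak. The fold is the authors' enrichment over local background, and the false discovery rate (FDR, a percent) is the authors' estimate from calling peaks with ChIP and input exchanged. After the authors' filter the ChIP libraries held 20766909 tags in suspended and 21108364 in attached cells, and the inputs 21437074 (suspended) and 15878452 (attached) tags. Intervals on tags and on peaks per Mb are exact Poisson 95% intervals, those on shares are Clopper-Pearson 95% intervals, and all cover counting error only.

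Suspended cells had many more called peaks on 3q than attached cells, 337 against 10. The suspended peaks of 3q held 8 to 86 tags (median 13), had a fold of 3.99 to 17.96 (median 9.36) and were 100 to 1304 bp wide (median 224 bp). The attached peaks of 3q held 8 to 31 tags (median 22) and had a fold of 6.09 to 25.86. The FDR was at most 6.39% at every suspended peak of 3q and at most 5% at 255 of them (75.7%), whereas it ran from 23.08% to 100% at the attached ones. A site of 3q absent from the attached list is therefore not shown to be unbound there. The same is true of 3p, where 233 suspended and 10 attached peaks were called.

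Single suspended peaks of 3q were much like those elsewhere in median tags and fold. Their median of 13 tags stood beside 14 on 3p and 15 on the other chromosomes, and the median fold of 9.36 beside 9.22 and 9.1. At most 10 tags were held by 34.4% of the 3q peaks (29.4 to 39.8), by 30% on 3p (24.2 to 36.4) and by 30% elsewhere (29 to 31). No 3q peak reached a fold of 20, which 2 of 233 did on 3p and 69 of 8411 (0.82%) elsewhere. Since 0 of 337 has an upper limit of 1.09%, that absence is not distinguishable from the share elsewhere.

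In suspended cells 3q held more peaks per Mb than 3p. The density was 3.23 per Mb on 3q (2.89 to 3.59), against 2.48 per Mb on 3p (2.17 to 2.82) and 2.91 (2.85 to 2.98) on all other chromosomes. The ratio of 3q to 3p was 1.3 (exact 95% interval 1.1 to 1.55), and that of 3q to the other chromosomes 1.11 (0.992 to 1.24), an interval that includes 1. Both ratios were also taken in bands of the authors' score, which is higher for a smaller p-value. At scores of 50 to 53.83, the lowest band, they were 1.42 (1.01 to 2) and 1.24 (0.995 to 1.52). At 69.33 or more, the highest band, they were 1.17 (0.807 to 1.71) and 0.904 (0.701 to 1.15). In the bands between, they were 1.29 and 1.32 to 3p, and 1.18 and 1.12 to the others. The intervals of the lowest and highest bands overlap, so a fall with score is not resolved. The arms are alike in protein-coding genes, with 5.42 per Mb on 3q and 5.34 on 3p. Among 25 regions, both arms and each other chromosome, 3q ranked 9th by suspended peaks per Mb and 5th by suspended peaks per protein-coding gene. In attached cells the density was 0.0958 per Mb on 3q (0.046 to 0.176) and 0.106 on 3p (0.0511 to 0.196), with a ratio of 0.9 (0.336 to 2.41) that 10 peaks on each arm cannot resolve. These intervals treat peaks as independent, and neighbouring peaks are not.

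The peaks were unevenly spread along the arm. In windows of 5 Mb, the 5 windows nearest the centromere held 3, 7, 5, 6 and 4 suspended summits, and the next 5 held 17, 26, 21, 25 and 15. Full windows ranged from 3 to 30 summits with a median of 14. The last, shorter window of 4.33 Mb at the end of the arm was the densest, with 35 summits or 8.08 per Mb. Low counts returned further out, with 6 summits at chr3:143900001-148900000 and 7 at chr3:163900001-168900000. These windows had 12 and 9 protein-coding genes. The longest stretch of 3q without a suspended summit, 4618 kb, ran from 101849231 to 106467581. On 3p it was 17766 kb, from 75704504 to 93470711.

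**Figure D1:**
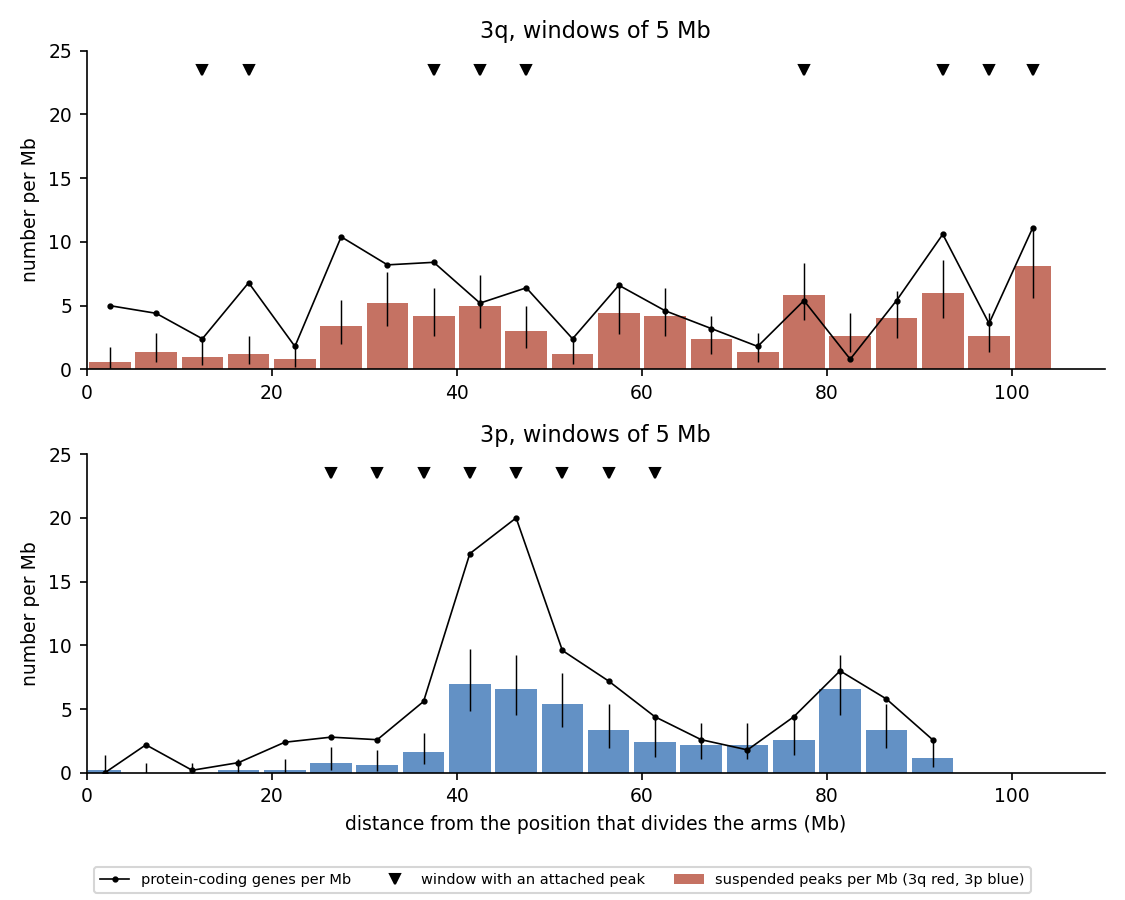
Suspended peaks per Mb (bars, with Poisson 95% intervals) and protein-coding genes per Mb (line) in windows of 5 Mb, for 3q above and 3p below, against the distance in Mb from the position that divides the arms. Triangles mark windows with an attached peak; on both arms the windows nearest the division are low, and on 3q the count goes up after the first 5 windows.

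Away from the sparse inner parts, the arms had close to the same density per Mb. The positions of 120 Mb on 3q and 55 Mb on 3p were chosen after the window counts were seen, so the values on either side of them are a description. Distal of 120 Mb, 3q held 310 suspended peaks, 3.96 per Mb (3.53 to 4.43), and proximal of it 27, 1.03 per Mb (0.682 to 1.51). Protein-coding genes were 5.71 per Mb in the distal and 4.52 per Mb in the proximal part. A suspended summit lay within 1 kb of a gene end at 75 of 447 distal genes (16.8%, 13.4 to 20.6) and at 8 of 118 proximal genes (6.78%, 2.97 to 12.9). Distal 3p held 215 peaks, 3.91 per Mb (3.4 to 4.47), and its inner part 18, 0.463 per Mb (0.274 to 0.731). Distal 3q over distal 3p gave a ratio per Mb of 1.01 (0.849 to 1.21). Distal 3p had more protein-coding genes, 7.6 per Mb, so distal 3q held more peaks per gene. A summit in the gene or within 5 kb was found at 37.6% of distal 3q and 37.3% of distal 3p genes. The sparse part, counted up to the division with any centromeric sequence left in, is 26.1 Mb long on 3q and 38.9 Mb on 3p. Attached peaks were 8 in the distal and 2 in the proximal part of 3q.

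Windows with more genes had more peaks on both arms, and the order was looser on 3q. Over 20 full windows of 3q, Spearman's rank correlation between suspended summits and protein-coding genes was 0.62, and over 18 windows of 3p it was 0.9. For summits further than 1 kb from a gene end the values were 0.49 on 3q and 0.88 on 3p. Neighbouring windows share a chromosome and a library, so no p-value is given. At chr3:173900001-178900000, for example, 13 suspended summits stood beside 4 protein-coding genes, and none of them was within 1 kb of a gene end.

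By position relative to genes, and over the whole arms, peaks inside genes were denser on 3q than on 3p and elsewhere. Within 1 kb of a gene end lay 107 of the 337 suspended summits of 3q (31.8%, 26.8 to 37), against 90 of 233 on 3p (38.6%, 32.3 to 45.2) and 36.5% elsewhere. Further inside a gene lay 171 on 3q (50.7%, 45.3 to 56.2), against 106 on 3p (45.5%, 39 to 52.1) and 42.5% elsewhere (41.4 to 43.6). Between genes lay 59 on 3q (17.5%) and 37 on 3p (15.9%). Counted per Mb, peaks inside genes were 1.45 times as dense on 3q as on 3p (1.13 to 1.87) and 1.32 times as dense as elsewhere (1.13 to 1.54). Peaks between genes were 1.44 times as dense on 3q as on 3p (0.936 to 2.23), a ratio close to that inside genes with an interval that includes 1, and 0.926 times as dense as elsewhere (0.702 to 1.2). Peaks at gene ends were 1.07 times as dense as on 3p (0.801 to 1.43) and 0.964 times as dense as elsewhere (0.788 to 1.17). These ratios to 3p include its long sparse inner part. In the distal parts, peaks inside genes were 2.02 per Mb on 3q and 1.75 on 3p. Between genes they were 0.677 and 0.6 per Mb, and at gene ends 1.27 and 1.56, fewer on 3q. The median protein-coding gene spans 39.4 kb on 3q, 31.5 kb on 3p and 24.1 kb over all chromosomes, and its part in the count inside genes was not tested. Peaks at gene ends of 3q were the larger ones, with a median of 23 tags and 372 bp, against 11 tags and 200 bp inside genes. Their median fold was lower, 7.17 at gene ends and 10.2 inside genes.

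**Figure D2:**
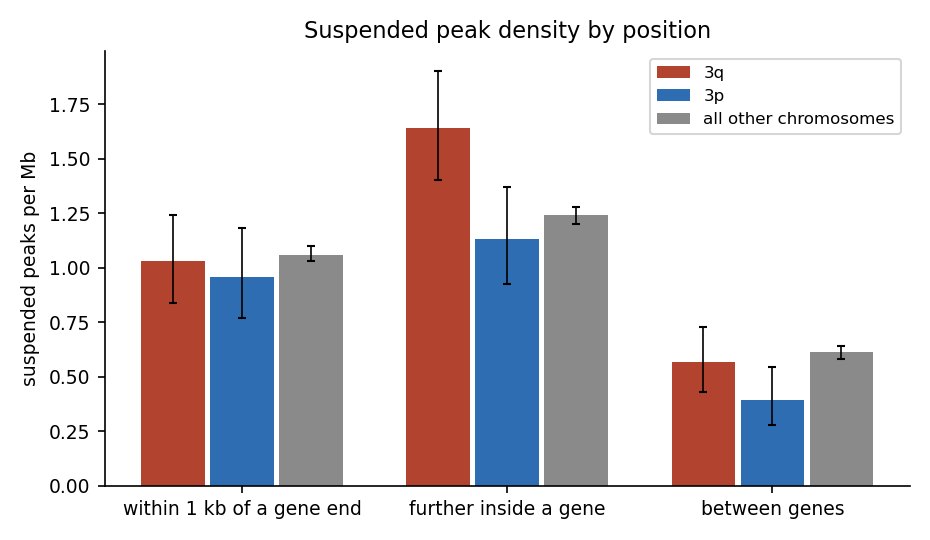
Suspended peaks per Mb at gene ends, further inside genes and between genes, for the whole of 3q, the whole of 3p and all other chromosomes, with Poisson 95% intervals. The 3q bar stands above both others inside genes (1.64 per Mb, against 1.13 on 3p and 1.24 elsewhere) and beside them at gene ends.

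Around gene starts, whose strand the promoter table gives, the summits of both arms gathered in the same way. A listed start lay within 1 kb of 102 suspended summits of 3q (30.3%, 25.4 to 35.5) and of 77 of 3p (33%, 27 to 39.5). Of the 102 on 3q, 44 were upstream and 58 downstream of the start, with a median distance of 268 bp. A summit fell inside the promoter window at 42 of 1199 windows of 3q (3.5%, 2.54 to 4.71), 30 of 954 of 3p (3.14%, 2.13 to 4.46) and 2.73% elsewhere. In attached cells 5 of the 10 summits of 3q lay within 1 kb of a start.

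**Figure D3:**
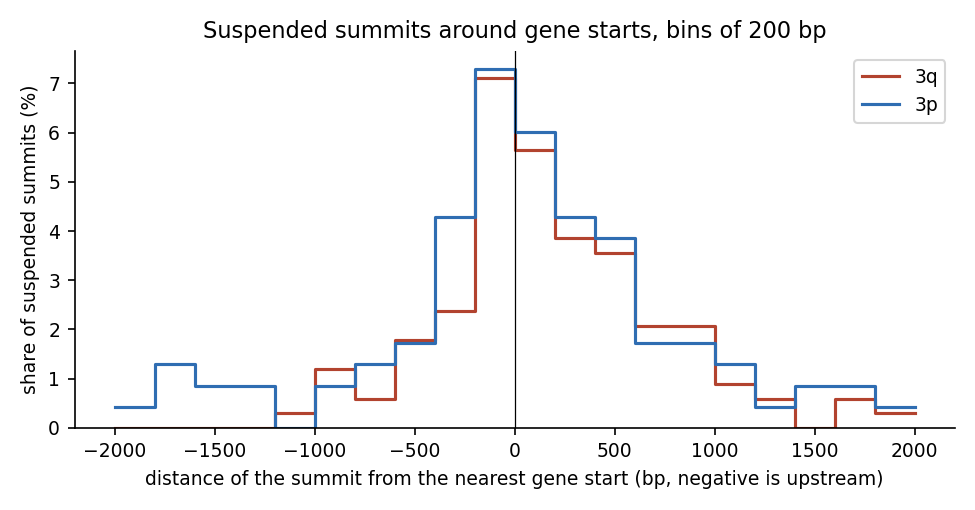
Share of suspended summits (%) by distance in bp from the nearest listed gene start, in bins of 200 bp, negative values upstream. Both arms have their highest bins next to the start, and 102 of the 337 summits of 3q lie within 1 kb.

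Of the 10 attached peaks of 3q, 6 shared 1 bp or more with a suspended peak (60%, 26.2 to 87.8), against 5 of 10 on 3p (50%) and 210 of 462 in all (45.5%). The shared peak at ATP6V1A and NAA50 had 24 tags in suspended cells (15.4 to 35.7), against 16 in attached cells (9.15 to 26). ATP6V1A encodes a catalytic subunit of the proton pump that acidifies lysosomes, and NAA50 an N-terminal acetyltransferase. The peak lay at chr3:113746949-113747299 in the suspended list. The peak at CPNE4 had 30 tags in suspended cells (20.2 to 42.8) and 27 in attached cells (17.8 to 39.3). These pairs of intervals overlap.

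The peak in AMOTL2, an angiomotin gene whose product binds the coactivators YAP and TAZ, had 20 tags in suspended cells (12.2 to 30.9), against 30 in attached cells (20.2 to 42.8). The attached peak was called wider, at 464 bp, than the suspended peak, at 274 bp. Per called base and scaled to library depth, the ratio of suspended to attached tags was 1.15. The peak at the uncharacterised gene LOC124906289 had 30 tags in suspended cells and 31 in attached cells. The peak in IGF2BP2, which encodes an mRNA-binding protein and lies in the part often gained in squamous tumours, had 24 tags in suspended and 23 in attached cells. The peak at OPA1 and ATP13A4 had 15 tags in suspended cells (8.4 to 24.7) and 21 in attached cells (13 to 32.1).

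Divided by library depth, the ratio of tags, suspended to attached, ran from 0.678 at AMOTL2 to 1.52 at ATP6V1A, with a median of 1.02 over the 6 sites, and was above 1 at 3 of them. All 6 single-site intervals include 1, for example 0.777 to 3.07 at ATP6V1A. The median was 1.45 over the 5 shared sites of 3p and 1.36 over the 210 of all chromosomes. The suspended peak was the wider one at 2 of the 6 sites of 3q and at 152 of the 210. Per called base, the depth-scaled ratio was 1.04 at ATP6V1A, 1.25 at CPNE4, 1.15 at AMOTL2, 1.19 at LOC124906289, 0.882 at IGF2BP2 and 0.905 at OPA1. These values span a narrower range than the ratios of tags, and the part of width was not tested further.

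**Figure D4:**
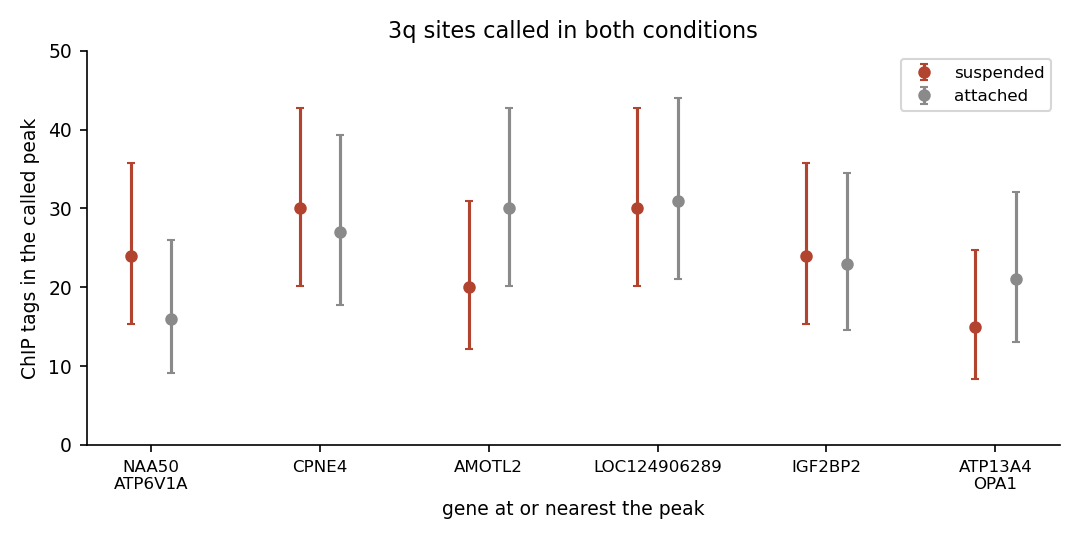
ChIP tags in the called peak at the 6 sites of 3q called in both conditions, suspended beside attached, with Poisson 95% intervals. The intervals of the conditions overlap at every site, with suspended values of 15 to 30 tags and attached values of 16 to 31.

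The other 4 attached peaks of 3q overlapped no suspended peak. The largest had 29 tags (19.4 to 41.6) and a fold of 9.2 at NCEH1, which encodes a cholesteryl ester hydrolase. Its summit lay 7 bases before a start of the gene, and the nearest suspended summit lay 11685 bp away inside the same gene, with 16 tags. The others lay in LINC01990 (13 tags), SDHAP1 (8 tags) and SDHAP4 (10 tags). SDHAP1 and SDHAP4 are pseudogenes related to SDHA, so reads there could belong to near-identical copies. Their FDR ran from 49.54% at NCEH1 to 100% at the rest.

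SOX2 and PIK3CA had no peak in or within 5 kb of the gene in either list, and TP63 had 1 small suspended peak. SOX2 lies at chr3:181711925-181714436. Its nearest suspended summit was 371164 bp away, in the overlapping long noncoding gene SOX2-OT, with 8 tags (3.45 to 15.8) and a fold of 8.86. On the other side the next one was 1105981 bp away, in ATP11B. The nearest attached summit was 4099308 bp away. PIK3CA lies at chr3:179148126-179240093. Its nearest suspended summits lay 33098 bp after it, at KCNMB3 with 8 tags (3.45 to 15.8), and 76366 bp before it, at ZMAT3 with 21 tags.

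TP63 spans chr3:189596746-189897276. Its suspended peak, at chr3:189891817-189891991, had 10 tags (4.8 to 18.4) at a fold of 8.94 with 4.99% FDR, and lay 5381 bp inside the far end of the gene. Within 1 Mb there were 7 suspended summits around TP63, 8 around PIK3CA and 3 around SOX2, and no attached summit around any of them. These values are small beside those of the arm's large peaks, and at this depth weaker binding would not be listed.

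The 10 suspended peaks of 3q with most tags all lay within 1 kb of a listed gene start. MSL2 was first, with 86 tags (68.8 to 106) in 1191 bp at chr3:136196034-136197224, a fold of 7.86 and a summit 36 bases before the start. EIF4A2, which encodes a translation initiation helicase and hosts several small nucleolar RNAs, followed with 78 tags (61.7 to 97.3) in 1304 bp. An equal 78 tags lay at the neighbours CLCN2, a chloride channel gene, and POLR2H, which encodes a shared subunit of the RNA polymerases, at -536 bp from a start of POLR2H, that is, upstream of it. The other protein-coding genes among the 10 were GATA2, a blood and endothelial factor gene (57 tags), UBXN7, which encodes a p97 cofactor (55), TRIM59 (55), the sorting nexin gene SNX4 (51) and the splicing regulator gene TRA2B (50). The noncoding genes LINC02004 (58 tags) and LINC01063 (53) had the remaining ones. Folds of these 10 ran from 3.99 at GATA2 to 9.64 at UBXN7.

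The peaks of highest fold were a different and mostly small set. The highest fold, 17.96, was found at GHSR, the ghrelin receptor gene, and in ATP11B, a phospholipid flippase gene, each with 10 tags (4.8 to 18.4). ADCY5, an adenylyl cyclase gene, had 35 tags (24.4 to 48.7) and a fold of 17.48 at chr3:123286356-123286662, the highest score of the arm. The other 7 had 8 to 13 tags and folds of 16.59 to 17.71. They lay in TPRG1 and DHX36, within 1 kb of an end of LINC01192 and of LOC101928882, 4423 bp from DIPK2A, 14928 bp from ILDR1 and 126777 bp from RNU7-82P. On 3p the fold was higher at its top, with 37.26 at 26387 bp from ERC2, 23.83 at 35766 bp from LOC124909391 and 19.87 in BHLHE40-AS1.

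The most crowded Mb of 3q was chr3:195900001-196900000, near the end of the arm, with 14 suspended summits and 7 of them at gene ends. It holds TFRC, the transferrin receptor gene, TNK2, a kinase gene, PAK2, a kinase of the cytoskeleton, SENP5, a SUMO protease gene, PIGX and UBXN7, among others with a peak. Peaks of 11 and 12 tags in the pseudogene SDHAP1 are among the 14, and reads there could belong to near-identical copies. The Mb at chr3:135900001-136900000 held 12 summits, 8 of them inside genes, at MSL2, PCCB, PPP2R3A and STAG1. The Mb at chr3:148900001-149900000 also held 12, at WWTR1, HLTF, TM4SF1, CP, GYG1 and RNF13. With summits within 10 kb merged, these windows held 12, 11 and 11 sites in the order given, so their ranking is close. Then came 11 summits at chr3:169900001-170900000, with SEC62, SKIL, PRKCI and PHC3, and 11 at chr3:171900001-172900000, with ECT2, FNDC3B, TNFSF10, GHSR and NCEH1. Of the 105 windows of 1 Mb along the arm, 19 held no suspended summit, and the median was 3.

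STAG1 and WWTR1, picked out after their counts were seen, had the most suspended summits per protein-coding gene of 3q, 5 each. STAG1 encodes a cohesin subunit and spans 416.1 kb. Its peaks had 8, 9, 12 and 16 tags inside the gene and 31 within 1 kb of the start. WWTR1 encodes TAZ, the coactivator of the Hippo pathway, and spans 207.6 kb. Its peaks had 14, 16, 9 and 22 tags inside the gene and 26 at 806 bp into the gene from its start. Neither had an attached peak. FNDC3B, KALRN, LPP, RUBCN and TBL1XR1 had 4 each.

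In suspended cells 28.6% of 20037 protein-coding genes had a summit in the gene or within 5 kb, and so did 32.7% of the 565 of 3q and 33.5% of the 501 of 3p. Within 1 kb of a gene end it was 13.8% of all, 14.7% on 3q and 16.8% on 3p. In attached cells the shares were 1.86% of all, 1.42% on 3q and 0.998% on 3p, and at gene ends 0.809%, 0.885% and 0.599%. The lists hold genes that were picked by hand under broad themes, with earlier results of these data in view, so a share above the background is a description. Some members act mainly outside the theme of their list, so a share describes the list and not a function. Examples are BFSP2, COPG1 and SEC61A1 under autophagy, endosome and lysosome, and ADCY5 under adhesion. MBNL1 and TBL1XR1 under developmental factors, and XRN1 and TIMMDC1 under replication, are further ones. DNAJB11, SELENOT, RSRC1 and SLC25A36, under ribosome and translation, are others. Over the distinct genes of the 7 lists of 3q, 96 of 204 had a suspended peak (47.1%, 40.1 to 54.2) and 4 an attached one (1.96%). These 4 were ATP6V1A, CPNE4, IGF2BP2 and NCEH1. Listed genes are also longer than the arm's median of 39.4 kb in 4 of the 7 lists, and a longer gene has more room for a summit. For list members, gene ends are the outer ends of the gene's span. Members with no peak there can have one within 1 kb of another listed start, as DCUN1D1, MCCC1, LPP and CPNE4 did.

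Genes of the part gained in squamous tumours had a suspended peak in 25 of 40 members (62.5%, 45.8 to 77.3), and at a gene end in 12 (30%). At gene ends SEC62, an endoplasmic reticulum translocation gene that also acts as an autophagy receptor gene, had 40 tags and a fold of 6.94. TFRC had 33 tags (fold 7.8), ACTL6A, a chromatin remodelling subunit gene, 32 (6.85), and the polycomb gene PHC3 31 (5.46). SKIL, a repressor gene of TGF-beta signalling, had peaks of 30 and 16 tags, and MYNN of 20 and 17. PLD1 (28 tags), ECT2 (23), MAP3K13 (23), ZMAT3 (21), IGF2BP2 (19) and FNDC3B (13) completed the 12. ECT2 encodes an exchange factor needed for cell division, and MAP3K13 a kinase of stress signalling. Away from gene ends, ECT2 and FNDC3B also had peaks of fold 14.34 (11 tags) and 13.44 (13 tags). Among members with no peak at a gene end, the highest folds were in ATP11B (17.96), FXR1 (14.52), MECOM (13.49) and MCCC1 (12.98), with 9 to 12 tags each. The atypical protein kinase C gene PRKCI had peaks of 8 and 14 tags, and the neddylation gene DCUN1D1 one of 28.

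The list of autophagy, endosome and lysosome genes, made because the study's title names the autolysosomal process, had a suspended peak in 16 of 28 members (57.1%, 37.2 to 75.5), and at a gene end in 9 (32.1%). Members with a peak include genes that act mainly elsewhere, such as BFSP2, COPG1, SEC61A1 and GOLIM4, so this is not a share of autophagy genes alone. ATP6V1A had peaks of 24 and 21 tags at a gene end. SNX4 had 51 tags, SEC62 40, TFRC 33, TMEM41A 31, PLD1 28, SEC61A1 24, RAB43 21 and GOLIM4 17. RAB43, a Golgi GTPase gene, had the highest fold of these, 14.25, at the end of the gene far from its start. Among members with no peak at a gene end, the highest folds were in TMCC1 (16.39), PIK3R4, which encodes a subunit of the autophagy lipid kinase (14.34), ATP2C1 (12.74) and RUBCN (10.62). Of the members with a peak at a gene end, ATP6V1A also had one inside the gene of fold 14.9 (9 tags), and SNX4 had peaks of fold 12.41 and 12.07 (8 tags each). RUBCN encodes Rubicon, a negative regulator of autophagy, and had 4 small peaks of 10 to 13 tags. RAB7A, LAMP3 and ATG3 had none.

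Genes of adhesion, junctions and polarity had a suspended peak in 14 of 36 members (38.9%, 23.1 to 56.5), close to the 32.7% of the arm. At gene ends they were PODXL2 (37 tags), PAK2 (36), the plexin gene PLXND1 (35), CDV3 (33), TM4SF1 (23) and KALRN (18). The PODXL2 peak lay at the end of the gene far from its start, 43824 bp away, and beside the neighbouring gene ABTB1. KALRN also had a peak inside the gene at chr3:124217645-124217998, with 24 tags (15.4 to 35.7) and a fold of 16.21. Among members with no peak at a gene end, the highest folds were in ADCY5 (17.48), DLG1, a polarity scaffold gene (14.34), CLDN16, a claudin gene (14.04), and STXBP5L (12.42). None of the 36 had an attached peak (upper limit 9.74%). Neuronal and synaptic genes had one in 12 of 34 members (35.3%, 19.7 to 53.5), and at a gene end in 2, GHSR and SST. SST, the somatostatin gene, had 19 tags at a fold of 14.9 and 0.31% FDR at chr3:187669670-187669944. Among members with no peak at a gene end, NAALADL2 (15.37), SLC7A14 (14.46, with 28 tags), CPNE4 (12.77) and TRH, the thyrotropin-releasing hormone gene (12.39), had the highest folds.

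The list of developmental transcription factor genes had a suspended peak in 15 of 25 members (60%, 38.7 to 78.9). At a gene end 2 (8%) had one, ZNF639 (22 tags) and ZBTB11 (9 tags, at the end far from its start). Peaks at a listed start inside the gene's span are not in that count. GATA2 (401 bp from such a start), MBNL1 (-118 bp) and TBL1XR1 (131 bp) had such peaks. Among members with no peak at a gene end, MBNL1 (14.56), MECOM (13.49), HLTF (11.95) and TBL1XR1 (11.95) had the highest folds. GATA2 had peaks of 57 and 15 tags, and HES1, a Notch target gene, one of 25. ETV5, the ETS factor gene of the list, had one of 14 tags inside the gene. The list of replication, repair and cell cycle genes had one in 17 of 35 members (48.6%, 31.4 to 66), at a gene end in 9. These were TRIM59 (55 tags), KPNA4 (44 and 29), CEP63 (39), RNF7 (32), SENP5 (26), TOPBP1 (23), ECT2 (23), NCBP2 (22) and CCNL1 (19). Of these, ECT2 also had a peak of fold 14.34 at 1730 bp from an end, and CEP63 one of fold 13.11 inside the gene, with 11 tags each. Among members with no peak at a gene end, the highest folds were in XRN1 (13.11), IFT80 (12.14), HLTF (11.95) and TIMMDC1 (11.92). The ribosome and translation list had one in 8 of 26 members (30.8%, 14.3 to 51.8), and in 7 of these at a gene end. EIF4A2 (78 tags), DNAJB11 (48), RPL22L1 (39), SELENOT (34 and 13), RSRC1 (33), SEC61A1 (24) and SLC25A36 (17) were those 7. RPL35A had 17 tags 4058 bp beyond an end. The peak at RSRC1 also lies near SHOX2, and that at PAK2 near PIGX.

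**Figure D5:**
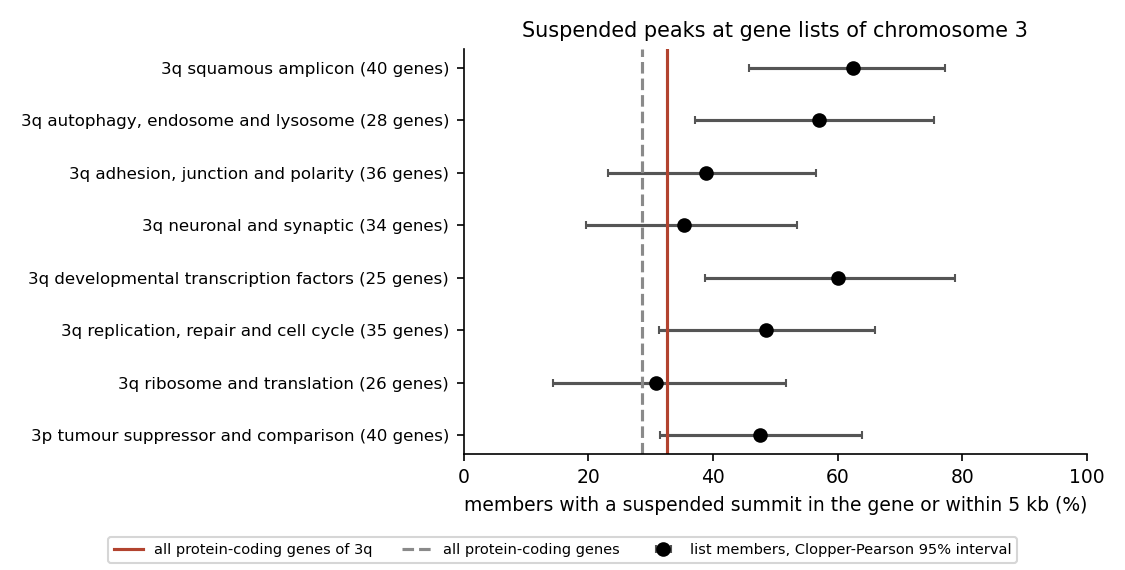
Share of list members (%) with a suspended summit in the gene or within 5 kb, with Clopper-Pearson 95% intervals, for 7 lists of 3q and 1 of 3p. Lines give all protein-coding genes of 3q (32.7%) and of all chromosomes (28.6%); the list of genes gained in squamous tumours is at 62.5% and the ribosome and translation list at 30.8%.

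Beside these, the list of tumour suppressor and other genes of 3p had a suspended peak in 19 of 40 members (47.5%, 31.5 to 63.9), where 33.5% of all protein-coding genes of 3p did. At a gene end they numbered 9 (22.5%), against 12 of 40 (30%) for the genes gained on 3q. The laminin gene LAMB2 (57 tags) and the DNA repair gene FANCD2 (37 tags) had the most tags among them. None of the 40 had an attached peak (upper limit 8.81%). The interval of the 3q list of gained genes, 45.8 to 77.3%, and that of the 3p list overlap, so the lists of the arms are not shown to differ.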

How the data were processed

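SPIB ChIP-seq peaks of suspended and attached H1703 cells were analysed, with 1 ChIP and 1 input library per condition. Per the file headers, the authors ran MACS 1.4.2 on either ChIP library with the matching input as control, at a p cutoff of 1e-05. The build, per the submitters' processing notes, is hg38. An aligner was not given in the sources used here. The modelled fragment length was 63 bp (suspended) and 58 bp (attached), close to the tag size of 50 bp, per the file headers.

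Tags are a count of ChIP tags per peak as deposited, without normalization. The fold is a ratio to local background, as deposited by the authors. The score is the authors' p-value as its negative log10 times 10, identified by its place and lowest value because its column name was lost. The FDR is the authors' percent. These authors' values served to order and select peaks inside 1 list.

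Peaks were assigned to genes by summit, with 59679 genes of a RefSeq table (GRCh38.p14, 20037 of them protein-coding). Gene starts came from a table of 35116 RefSeq promoter windows for 27305 genes. On unplaced sequence lay 43 suspended and 9 attached peaks, which belong to neither arm nor any other chromosome. The division of the arms gave spans of 104.3 Mb (3q) and 93.9 Mb (3p), bounded by the outermost annotated genes. Summits were not sorted into exons, introns or UTRs. Python 3.11.15, numpy 2.4.6, pandas 2.3.3, SciPy 1.17.1 and matplotlib 3.10.9 were used, and the counting was tested on simulated peaks. With 1 library per group no test between conditions was possible.

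The members and the gene lists were chosen with earlier results of these data known. Of the symbols written for the lists, 19 were not on the stated arm and were left out. Named genes are SOX2, TP63 and PIK3CA, every attached peak of 3q, the 10 suspended peaks of highest fold and of most tags, the 5 densest windows of 1 Mb, list members with a peak at a gene end and, by fold, up to 4 per list with no peak at a gene end. A few further list members are given for their known role, chosen after their values were seen.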

Additional observations from a re-analysis of the deposited data

How the results depend on the processing

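No paired analysis was possible because each group has 1 library. Of 72 values recomputed under another choice, 46 stayed near the value reported, 25 moved and 1 turned round. The suspended density ratio of 3q to 3p stayed between 1.25 and 1.39 under the 6 planned choices: an FDR of at most 5%, peaks at or above the median score, counts per protein-coding gene, no peaks within 5 Mb of the division, merged summits, and no densest Mb. In the distal parts of both arms, a choice made after seeing the data, it was 1.01, counted per Mb. The attached ratio of 0.9 turned to 1.2 at or above the median score, where 4 and 3 peaks were left. The cause was not tested.

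The share of summits near a gene end depends on the distance. On 3q in suspended cells it was 22.3% at 500 bp, 50.7% at 5 kb, 23.7% with protein-coding genes alone and 42.2% at or above the median score. On 3p it was 28.8% at 500 bp, 57.5% at 5 kb, 34.3% with protein-coding genes alone and 48.6% at or above the median score. Attached shares on 3q were 80% at 5 kb and 75% at or above the median score, and on 3p 0% at or above the median score.

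At or above the median score, members with a suspended peak numbered 14 (genes gained in squamous tumours), 9 (adhesion), 6 (neuronal), 8 (developmental factors), 10 (replication), 5 (ribosome), 10 (3p list) and 56 over all 3q lists. At an FDR of at most 5% they numbered 7 (neuronal) and 5 (ribosome), and with 50 kb on both sides 29 (replication) and 18 (ribosome). Attached members over all lists numbered 7 with 50 kb and 0 at an FDR of at most 5%, where no attached peak of 3q is left, so the share of attached peaks called in suspended cells could not be had there. The depth behind a peak, a median of 13 tags on 3q, limits any comparison of single sites.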
